A study of Mus musculus with 27 samples.

Results

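Metallothioneins are small cysteine-rich proteins that bind zinc and copper in the cytoplasm, and their genes are switched on when free zinc rises, through the metal-binding transcription factor encoded by *Mtf1*. Zinc leaves the cytoplasm through transporters of the Slc30 family and enters it through those of the Slc39 family, so that a cell's zinc is set by the balance of the families. Metallothionein genes are also known to be induced by glucocorticoids and by interleukin-6, the cytokine of the hepatic acute phase response, and *Slc39a14* is the importer that the liver uses in that response. The genes described here were 7 of the 36333 in the deposited data, chosen by symbol: the metallothioneins *Mt1* and *Mt2*, *Mtf1*, the exporters *Slc30a1* and *Slc30a10*, and the importers *Slc39a14* and *Slc39a4*. The low values of *Mt1* and *Mt2* in old skeletal muscle were the reason for the choice, so the muscle age differences are given as values with no test, and tests are confined to liver and adipose tissue. The young liver and adipose samples came from the same mice as the young muscle samples, so these tests are not independent of that choice.

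RNA-seq was performed on 27 samples of liver, omental adipose tissue and skeletal muscle from male *Mlx*KO mice of 5 months (4 per tissue) and 20 months (5 per tissue). All carried floxed *Mlx* alleles and 2 copies of a tamoxifen-activated Cre transgene at the ROSA26 locus, on a C57BL/6 background, and all received 5 daily injections of tamoxifen (75 mg/kg) at weaning, after reaching 15 g. Deletion was therefore induced body-wide, before both ages. The young mice, here called A, B, C and D in the order of their numbers in the labels, each gave all 3 tissues, whereas no number was shared among the old samples, which were treated as separate mice and are named by their own numbers. The labels give the older age as 20 months, but the titles of all 15 older samples carry the code X18, and 18 months stands in the supplementary material, so the older mice may have been 18 or 20 months old. WT samples were not analysed here, so every difference is one between age groups or tissues of *Mlx*KO mice. The age groups are separate sets of mice, so age and anything else that differed between the sets cannot be told apart. The labels do not say whether the samples of a group came from separate cages or days, and the p-values measure the spread between these samples.

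The samples held 14384695 to 25673919 reads on genes. The authors scaled these reads to the size of each library (CPM) and adjusted each sample by a further factor, and the result is called the value of a gene. Transcripts of the targeted gene *Mlx* remained countable, with a value of 18.8 to 32.4 for liver, of 8.19 to 13.9 for adipose tissue and of 7.04 to 11.6 for muscle. Without WT samples these values do not measure the extent of deletion. The supplementary material of the paper reports *Mlx* expression relative to WT. For young mice with the same numbers as here, it was lowest in liver, higher in adipose tissue and highest in skeletal muscle. Marker genes matched the tissue labels. The summed value of 5 hepatocyte genes was 43808 to 147926 in liver and at most 323.4 elsewhere, 5 adipocyte genes summed to 5886 to 13229 in adipose tissue, and 5 myofibre genes summed to 127871 to 160188 in skeletal muscle. Adipose tissue also held myofibre transcripts (99.1 to 852.8 summed) and macrophage transcripts (338.2 to 610.4 at 5 months and 469.9 to 1481 at 20 months).

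*Mt1* and *Mt2* lie side by side on chromosome 8 of GRCm38.p6, *Mt2* at 94172618 to 94173567 and *Mt1* at 94178883 to 94180327, with 5315 bases between them. *Slc30a10* (185454848 to 185468762) and *Slc30a1* (191906697 to 191913248) lie on chromosome 1, *Mtf1* on chromosome 4 (124802549 to 124849800), *Slc39a14* on chromosome 14 (70303467 to 70351452) and *Slc39a4* on chromosome 15 (76612383 to 76618506). An annotated antisense or non-coding gene on the other strand overlaps *Mt2*, *Slc30a1* and *Slc30a10*, and *Mtf1* overlaps the coding gene *1110065P20Rik* on the other strand. Of the 50-base words in the annotated transcripts of the 7 genes, none was shared with another gene except for 0.187% of those of *Slc39a14*, so the *Mt1* and *Mt2* reads can be told apart.

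The sequences upstream of 2 of the genes are shown because they hold the letters to which the *Mtf1* product is known to bind. They are the 250 bases before the start of each gene in the RefSeq-based promoter table for GRCm38.p6, on the plus strand, and capitals mark the core of the metal response element, TGCACNC or TGCGCNC, searched on both strands.
*Mt2*, chr8:94172368-94172617: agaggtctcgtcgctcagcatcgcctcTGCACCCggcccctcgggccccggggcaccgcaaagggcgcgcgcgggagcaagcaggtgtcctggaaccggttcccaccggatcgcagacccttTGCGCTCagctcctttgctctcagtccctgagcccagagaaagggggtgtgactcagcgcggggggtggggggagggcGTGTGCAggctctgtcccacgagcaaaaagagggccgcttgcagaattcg
*Slc30a10*, chr1:185454598-185454847: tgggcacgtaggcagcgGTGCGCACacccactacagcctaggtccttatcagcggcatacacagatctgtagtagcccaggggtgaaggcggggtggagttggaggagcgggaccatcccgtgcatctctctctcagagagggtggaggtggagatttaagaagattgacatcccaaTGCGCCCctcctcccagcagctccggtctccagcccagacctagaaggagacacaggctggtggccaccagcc
The core occurred at 3 places before *Mt2* and at 2 places before *Slc30a10*, where matches on both strands overlap at the distal place. Among 32851 windows of the same length, 21.4% held the core at 1 or more places, 4.30% at 2 or more and 0.770% at 3 or more. No core was found in the window before *Mtf1*. For *Mt1* and *Slc30a1* the start used in the table lies inside the annotated gene, by 206 and 84 bases, and each window held the core at 1 place. *Slc39a14* and *Slc39a4* were not matched. The E-box CACGTG, a motif of the Mlx and Myc factors, was in none of the 5 windows and in 6.02% of all windows.

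The metallothioneins were the most abundant of the 7 genes per kilobase of annotated exon in all 6 groups, from 403 to 738 in the young tissues to 18.7 for *Mt1* and 23.8 for *Mt2* in old muscle, where *Slc30a1* was next at 3.98. In liver, *Mt1* stood at 804, 920, 749 and 458 at 5 months and at 196, 585, 638, 429 and 447 at 20 months. Means were 733 ± 197 (SD, n = 4) and 459 ± 172 (SD, n = 5), and the ages overlapped. *Mt2* in liver stood at 449, 466, 251 and 127 at 5 months and at 35.1, 272, 174, 129 and 196 at 20 months. The lowest value of both genes belonged to the same old mouse, number 16, and every old sample lay below the mean of the young ones. The log2 difference was -0.73 (SE 0.323) for *Mt1* and -1.09 (SE 0.552) for *Mt2*, and neither passed the threshold of 0.05 (limma, Benjamini-Hochberg adjusted p = 0.123 and 0.173). Without old mouse 16 the differences shrank to -0.46 and -0.62, and without young mouse D they stood at -0.95 and -1.48, again short of the threshold.

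In adipose tissue both metallothioneins fell with age and the ages did not overlap. *Mt1* stood at 724, 932, 752 and 482 at 5 months and at 277, 312, 281, 223 and 122 at 20 months, a 2.97-fold lower mean. *Mt2* stood at 366, 390, 555 and 424 at 5 months and at 217, 262, 170, 156 and 71.5 at 20 months, a 2.47-fold lower mean. The old mouse with the lowest values of both genes was number 40. The log2 differences were -1.60 (SE 0.293, limma adjusted p = 0.0138) and -1.40 (SE 0.333, adjusted p = 0.0269), and 0.0159, the smallest p that all 126 splits of 9 samples can give in a two-sided exact permutation test, was reached by both. The call for *Mt1* held when any 1 sample was left out (adjusted p at most 0.0477). That for *Mt2* was lost without old mouse 38 or 39 or without young mouse A or B (adjusted p = 0.0514 to 0.0646), while its difference stayed between -1.11 and -1.58, and it was also lost in a fit of all 27 samples (adjusted p = 0.0764).

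Skeletal muscle had the widest range of metallothionein values. *Mt1* stood at 350, 1382, 190 and 84.9 at 5 months and at 32.1, 29.4, 23.5, 18.9 and 12.5 at 20 months. *Mt2* stood at 254, 1051, 97.5 and 57.1 at 5 months and at 17.9, 20.8, 10.3, 9.26 and 11.7 at 20 months. Every young sample lay above every old one for both genes. The young mean was 21.6-fold higher for *Mt1* and 26.1-fold higher for *Mt2*, and mouse B carried much of it: without that mouse the young means were 8.95-fold and 9.73-fold higher. The log2 differences were -3.69 and -3.79 with all mice and -2.95 and -2.98 without mouse B. These muscle values are those that led to the choice of the genes and are not a test. The old muscle samples were supported by 175 to 493 reads of *Mt1* and 126 to 313 of *Mt2*.

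**Figure D1:**
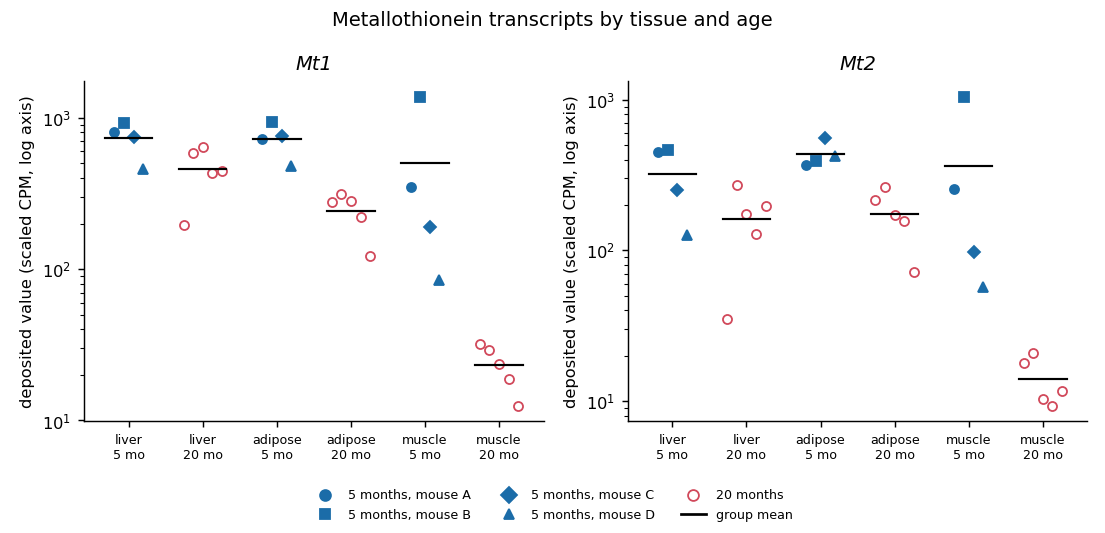
Values of *Mt1* (left) and *Mt2* (right) in each sample on a log axis, by tissue and age. Filled symbols are the 4 young mice, 1 shape per mouse, open circles the old mice, and bars the group means; in muscle the young values run from 84.9 to 1382 for *Mt1* and all lie above the old values of 12.5 to 32.1.

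The order of the 6 groups by mean *Mt1* value was young liver (733), young adipose tissue (723), young muscle (502), old liver (459), old adipose tissue (243) and old muscle (23.3). Neighbours in that order overlapped, except old adipose tissue and old muscle. For *Mt2* the order was young adipose tissue (434), young muscle (365), young liver (323), old adipose tissue (175), old liver (161) and old muscle (13.98), and again only the last step was free of overlap. The place of young muscle rested on mouse B: without it the young muscle mean was 208 for *Mt1* and 136 for *Mt2*, below both old liver and old adipose tissue. The ratio of the *Mt1* to the *Mt2* value, not corrected for transcript length, had a median of 1.67 and 1.43 in young and old adipose tissue, 1.43 and 1.80 in young and old muscle, and 2.48 and 3.34 in young and old liver. It ranged from 1.07 in an old muscle to 5.59 in an old liver, and the ages overlapped in each tissue.

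*Mtf1* varied little. It stood at 26.5, 25.6, 16.6 and 17.2 in young liver and at 16.4, 16.3, 16.2, 16.98 and 17.1 in old liver. Its values were 11.7 to 18.2 in young and 9.90 to 14.5 in old adipose tissue, and 20.4 to 28.2 in young and 21.3 to 25.9 in old muscle. The log2 age difference was -0.32 (SE 0.150, limma adjusted p = 0.139) in liver and -0.24 (SE 0.152, adjusted p = 0.248) in adipose tissue, so neither passed the test, although the adipose one did with sample weights (-0.42, adjusted p = 0.0055). In muscle it was 0.02. All neighbours in the order of its 6 group means overlapped, from old muscle (24.2) down to old adipose tissue (12.8).

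*Slc30a1* encodes the exporter of the plasma membrane, itself a known target of the *Mtf1* product, and it fell with age in liver and in adipose tissue. In liver it stood at 104, 96.2, 91.4 and 80.1 at 5 months and at 72.6, 74.8, 69.8, 82.1 and 60.1 at 20 months. In adipose tissue it stood at 61.3, 58.7, 45.1 and 37.4 at 5 months and at 33.7, 28.5, 36.4, 37.4 and 30.5 at 20 months, so that the lowest young and the highest old value differ only beyond the third digit. The log2 difference was -0.37 (SE 0.114, limma adjusted p = 0.0444) in liver and -0.57 (SE 0.158, adjusted p = 0.0377) in adipose tissue. The liver call was lost without old mouse 17, 18 or 74 or young mouse A, B or C (adjusted p = 0.0524 to 0.115), and the adipose call without old mouse 37, 38, 39 or 40 or young mouse A or B (adjusted p = 0.0598 to 0.105), each with the direction kept. The liver call was also lost in 6 of 11 other settings (adjusted p = 0.0501 to 0.181), and the adipose call with no filter (adjusted p = 0.0581). The ages overlapped in liver, and the two-sided exact permutation p was 0.0317 there and 0.0159 in adipose tissue. In skeletal muscle, the tissue with the least *Slc30a1*, the values were 14.8 to 22.2 at 5 months and 16.6 to 24.3 at 20 months, a log2 difference of 0.16.

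*Slc30a10*, whose product is best known for carrying manganese out of the cell, was a transcript of the liver. Its values there were 52.9, 59.9, 58.03 and 73.8 at 5 months and 51.7, 44.9, 31.98, 32.1 and 17.99 at 20 months. Old liver lay wholly below young liver, with the nearest samples at 51.7 and 52.9, and the mean fell from 61.1 ± 8.95 (SD, n = 4) to 35.7 ± 13.1 (SD, n = 5). The log2 difference was -0.83 (SE 0.251, limma adjusted p = 0.0409). It was between -0.61 and -0.98 when single samples were left out, and the call was lost without old mouse 18 or 19 or any 1 of the 4 young mice (adjusted p = 0.0663 to 0.0970), and in 3 of 11 other settings (adjusted p = 0.0510 to 0.0744). Adipose tissue and muscle held at most 6 reads of *Slc30a10* in a sample, where 3 reads are the limit that a count of 0 allows, so no age difference can be read there. Sums of hepatocyte marker genes were 97570 to 147926 in young and 43808 to 95930 in old liver, also without overlap. Most of each sum was *Alb*, at 73618 to 125324 in young and 26970 to 69595 in old liver. The ages overlapped for the other hepatocyte markers, *Apoa1*, *Ttr*, *Fabp1* and *Serpina1a*. The part of these markers in the liver differences was not tested.

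*Slc39a14* encodes an importer of zinc, iron and manganese, and it fell with age in adipose tissue. In adipose tissue it stood at 24.1, 42.2, 23.2 and 18.6 at 5 months and at 16.7, 14.6, 13.5, 16.5 and 12.2 at 20 months, with no overlap. The log2 difference was -0.78 (SE 0.210, limma adjusted p = 0.0357), and the call was lost without old mouse 37, 38, 39 or 40 or young mouse A or B (adjusted p = 0.0591 to 0.0825), with no filter (0.0579) and in a fit of all 27 samples (0.0775). In liver the values were 178, 242, 127 and 126 at 5 months and 104, 149, 131, 201 and 158 at 20 months, a difference of -0.16 with a 95% interval of -0.65 to 0.33 (adjusted p = 0.629). Young muscle held 105, 274, 59.3 and 46.9 and old muscle 27.3, 19.3, 13.96, 15.1 and 14.5, with no overlap and a log2 difference of -2.38, or -1.87 without mouse B. The mean of young muscle was 121 with mouse B and 70.5 without it, and mice C and D lay below every liver sample, while old muscle (18.02) stood between young (27.01) and old (14.7) adipose tissue, whose ranges it overlapped.

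*Slc39a4*, the importer through which the gut takes up dietary zinc, was also a liver transcript. It stood at 38.4, 51.6, 38.1 and 44.1 in young liver and at 50.4, 56.6, 61.6, 38.3 and 51.2 in old liver, a log2 difference of 0.25 (SE 0.146, limma adjusted p = 0.232) that did not pass the test. Adipose values were low and scattered, 1.49 to 6.46 at 5 months and 0.311 to 7.60 at 20 months (adjusted p = 0.617), and muscle held at most 3 reads in a sample. Of 4 genes of the intestinal epithelium, which summed to 31.8 to 39.4 in young and 18.8 to 33.5 in old adipose tissue, *Vil1* ran from 0.684 to 12.9 and *Lgals4* from 17.99 to 32.2, *Fabp2* reached at most 0.206, and *Cdx1* was at 0 in every adipose sample. The young mice had the same order from high to low in adipose *Slc39a4* and *Vil1* (D, B, A and C). For *Lgals4* their order was another, with mouse A at 32.2, C at 29.9, B at 27.4 and D at 25.2. Among the old mice, number 36 was highest for *Slc39a4*, *Vil1* and *Lgals4*. The part of these markers in the scatter was not tested.

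**Figure D2:**
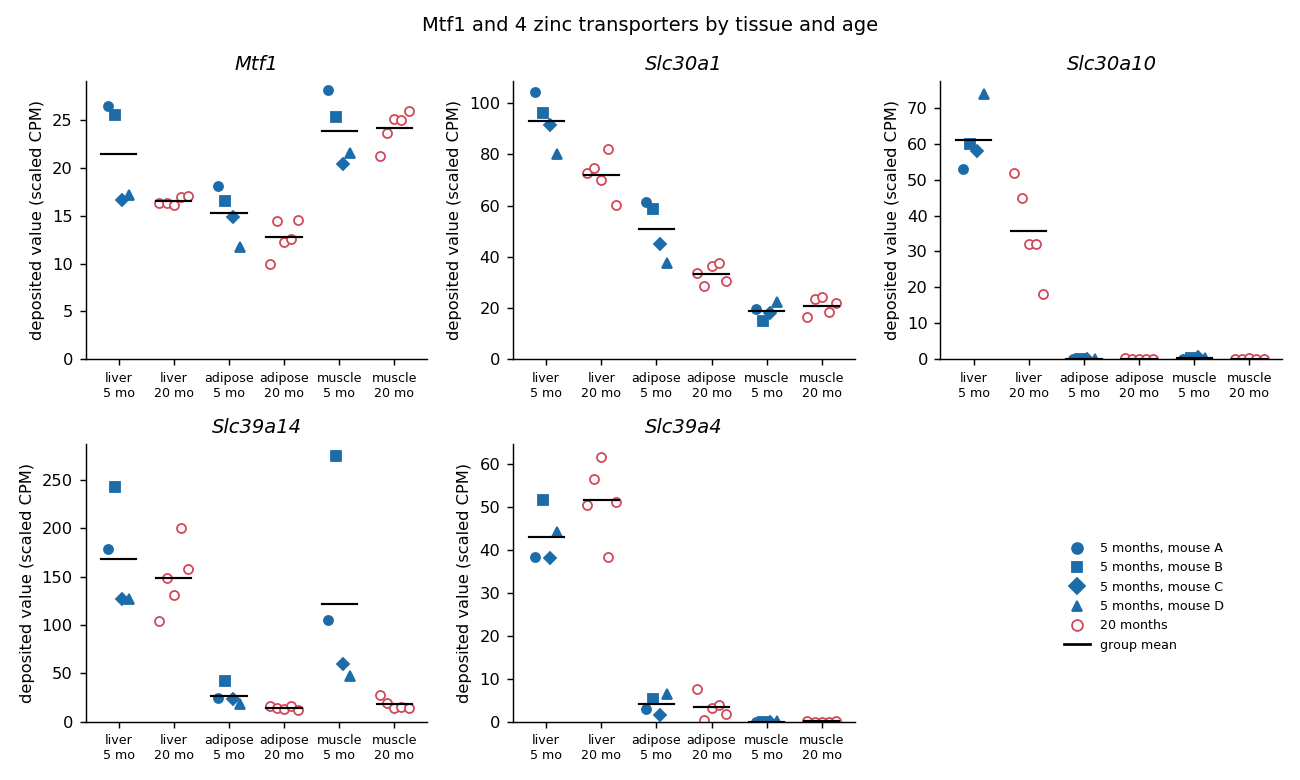
Values of *Mtf1* and the 4 zinc transporters in each sample on linear axes that start at 0, by tissue and age, with symbols as for the metallothioneins and bars for the group means. *Slc30a10* is near 0 outside liver, *Slc39a4* reaches at most 7.60 outside liver, and *Slc39a14* is high in young muscle, up to 274 in mouse B.

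Counted over the members that reached a value of 1 in 4 samples of the fit, 2 of 7 fell in liver and none rose, and 4 of 6 fell in adipose tissue and none rose, *Slc30a10* being below the filter there. Over all genes tested, 9.79% fell and 10% rose in liver, and 9.35% fell and 9.75% rose in adipose tissue (limma adjusted p under 0.05). Old samples lay wholly below young ones for 1 of 7 in liver, where 10.7% of all genes tested did so, and for 4 of 6 in adipose tissue, where 9.10% did. In muscle this held for *Mt1*, *Mt2* and *Slc39a14* of the 5 that passed, against 8.64% of all genes tested, and nothing is read from that count. In the bulk tissue, fewer cells of a type and less RNA per cell cannot be told apart. Marker sums of other cell types moved with age as well. In adipose tissue the median sum went from 402 to 989 for macrophages, 5.05 to 68.6 for B cells, 67.3 to 42.9 for mesothelium and 588 to 144 for myofibres. The myofibre sum was mostly *Acta1* in some adipose samples. In young mouse A *Acta1* stood at 323, *Myh4* at 2.01 and *Ckm* at 0.989, and in old mouse 36 *Acta1* stood at 128 and *Ckm* at 6.10. In muscle the macrophage genes summed to 71.1 to 115.4 at 5 months and 30.4 to 59.8 at 20 months, without overlap. Singly, *Cd68* and *Csf1r* were also free of overlap there, while the ages overlapped for *Adgre1*, *C1qa* and *Mrc1*. The part of these shifts in the results was not tested.

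**Figure D3:**
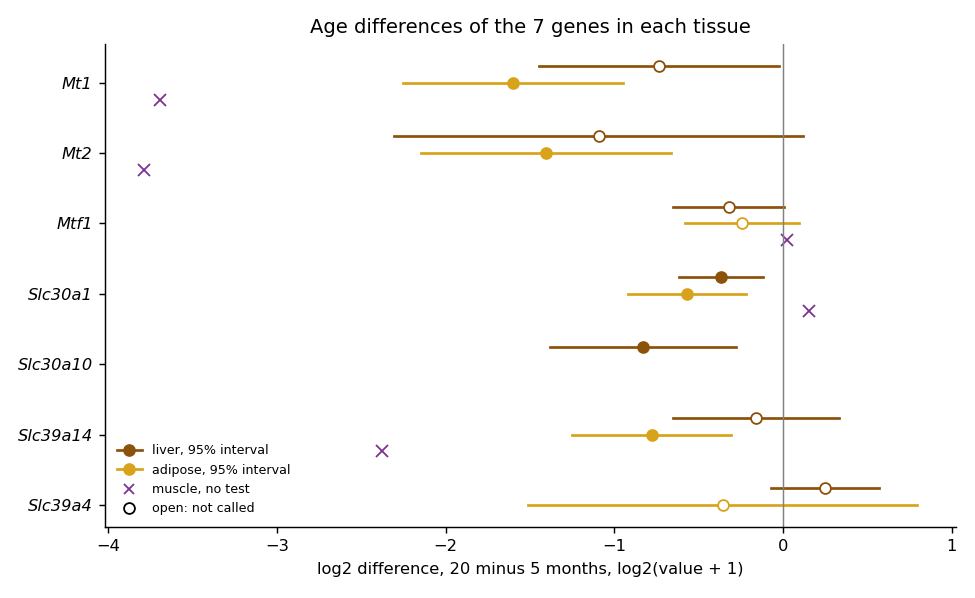
Log2 differences between 20 and 5 months on the scale of log2(value + 1) for the 7 genes, with 95% intervals from limma in liver and adipose tissue and crosses without interval in muscle. Filled circles passed the adjusted threshold; the adipose estimates for *Mt1* (-1.60) and *Mt2* (-1.40) lie left of the liver ones (-0.73 and -1.09), with intervals that overlap.

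Whether the age difference itself differed between liver and adipose tissue was tested for each gene in 1 fit of both tissues. None of the 7 passed, against 11.5% of all genes tested. *Slc30a10* (limma adjusted p = 0.0715) is set aside, since adipose tissue held almost no reads of it and the comparison then holds only its liver change. Of the other 6, the smallest adjusted p was 0.216, for *Slc39a14*, and 0 had an unadjusted p under 0.05. For *Mt1* the liver difference exceeded the adipose one by 0.87 on the log2 scale, with a 95% interval of -0.12 to 1.85 (adjusted p = 0.228). For *Mt2* the interval was -1.18 to 1.80, and for *Slc39a14* it was -0.065 to 1.302. A loss of metallothionein transcripts that passed the test in adipose tissue and not in liver was therefore not shown to differ between them. edgeR and DESeq2 on the recovered reads also called none. With sample weights *Mt1*, *Slc30a1* and *Slc39a14* passed (adjusted p = 0.0092, 0.0093 and 0.0204).

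Liver and adipose tissue were also compared within each age. At 5 months liver held more *Slc30a10*, *Slc39a4*, *Slc39a14* and *Slc30a1*, with log2 differences of 5.92, 3.22, 2.61 and 0.89. At 20 months the same 4 differences were 5.07, 3.83, 3.23 and 1.09. *Mt2* did not pass the test at either age (limma adjusted p = 0.190 and 0.638). *Mt1* stood level at 5 months, with a difference of 0.01 (95% interval -0.58 to 0.61, adjusted p = 0.968), and was higher in liver at 20 months, by 0.88 (SE 0.333, adjusted p = 0.0301). *Mtf1* was higher in liver by 0.45 at 5 months (adjusted p = 0.0611, and 0.0147 with mouse as a replicate block) and by 0.37 at 20 months (adjusted p = 0.0114). In all, 4 and 6 of the 7 passed, all higher in liver, where 39.4% and 37.9% of all genes tested were higher and 76.2% and 76.1% differed in either direction. The size for *Slc30a10* depends on the pseudocount, since adipose tissue held few or no reads of it. When the samples were rescaled without the 20 most abundant genes of each tissue, the median of all genes moved to -0.91 at 5 months and -0.74 at 20 months, and beside it *Mt1* stood at -0.96 (adjusted p = 0.0082) and 0.12, *Mt2* at -1.55 (adjusted p = 0.0038) and -1.03 (0.0858), *Mtf1* at -0.48 and -0.35 (adjusted p = 0.0233 at 20 months, in the opposite direction), and *Slc30a1* at -0.073 and 0.34.

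Per kilobase of annotated exon, young liver held more *Slc39a14* (32.4) than *Slc30a1* (17.7), *Slc39a4* (15.6), *Slc30a10* (10.5) or *Mtf1* (2.69). Old liver kept *Slc39a14* highest (28.5), followed by *Slc39a4* (18.7), *Slc30a1* (13.7), *Slc30a10* (6.13) and *Mtf1* (2.08). In young muscle *Slc39a14* stood at 23.3 and *Slc30a1* at 3.56, and in old muscle at 3.46 and 3.98.

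The families to which the transporters belong were surveyed in the same tests. Of 10 Slc30 exporters, 8 passed the filter in liver, and 5 fell and none rose, where 9.79% of all genes tested fell. The 5 were *Slc30a1* and *Slc30a10*, with *Slc30a3* (log2 -1.22, adjusted p = 0.0271), *Slc30a4* (-0.47, adjusted p = 0.0226) and *Slc30a7* (-0.30, adjusted p = 0.0420). *Slc30a4* stood at 22.3 to 26.7 in young and 15.6 to 21.4 in old liver and *Slc30a7*, an exporter into the secretory pathway, at 32.7 to 36.95 and 26.5 to 30.3, without overlap. *Slc30a3* is a low transcript of liver, at 1.31 to 3.64 and 0 to 1.73. In adipose tissue 1 of 8 tested exporters fell, *Slc30a1*, beside 9.35% of all genes. The age change of *Slc30a7* differed between the tissues (interaction -0.50, SE 0.114, limma adjusted p = 0.0113), its adipose difference being 0.20 (adjusted p = 0.112).

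Of 14 Slc39 importers, 12 passed the filter in liver and 1 rose, a share near the 10% of all genes that did: *Slc39a11*, from 6.55 to 15.0 at 5 months to 15.0 to 25.6 at 20 months (log2 1.01, SE 0.225, limma adjusted p = 0.0154). In adipose tissue 11 passed the filter, of which 2 rose and 1 fell (9.75% and 9.35% of all genes). *Slc39a11* rose there too, from 3.81 to 8.76 to 8.81 to 26.0 (log2 1.23, SE 0.320, adjusted p = 0.0330), *Slc39a3* rose by 0.31 (adjusted p = 0.0434), and *Slc39a14* fell. The importers tested had a median log2 difference of -0.04 in liver and 0.09 in adipose tissue and the exporters one of -0.33 and -0.19, beside medians over all genes tested of 0.00 and 0.01.

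**Figure D4:**
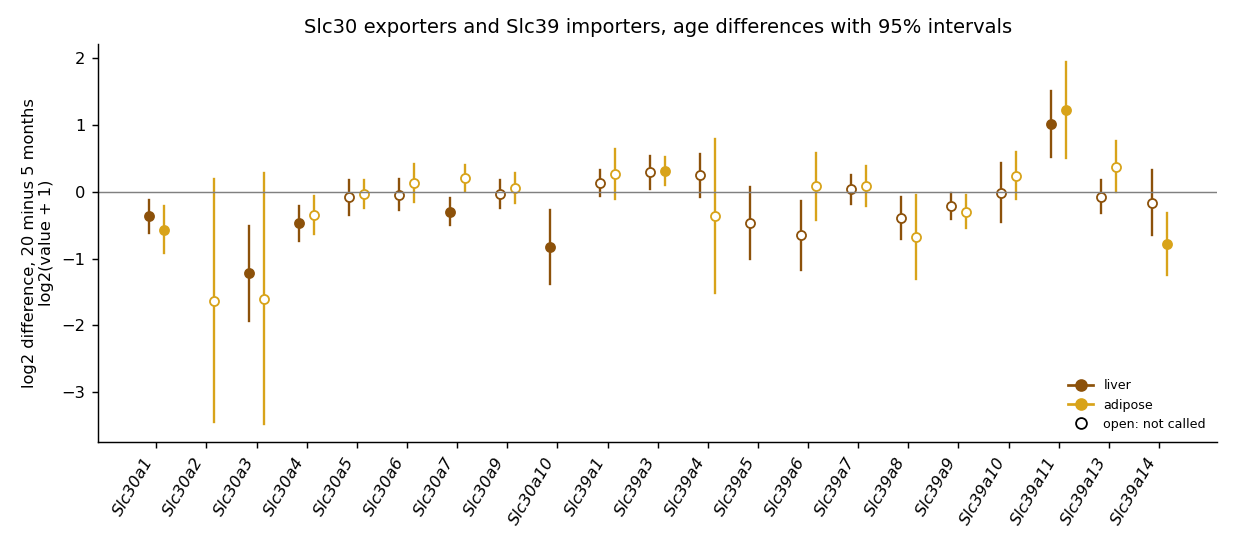
Log2 differences between 20 and 5 months with 95% intervals for the Slc30 exporters and Slc39 importers that passed the filter in liver or adipose tissue. Filled circles passed the adjusted threshold: 5 exporters lie below 0 in liver, and *Slc39a11* lies above 0 in both tissues (1.01 and 1.23).

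The other metallothioneins were near absent. *Mt4* had a value of at most 0.641 in any sample. *Mt3* was below the filter in liver and ran from 0.232 to 15.5 in young and 0.777 to 7.60 in old adipose tissue (log2 -0.50, limma adjusted p = 0.610). Of 12 genes of copper handling, 3 rose and 1 fell in liver (10% and 9.79% of all genes), and 3 of 11 rose in adipose tissue (9.75% of all genes). *Atox1*, the copper chaperone, rose in both (log2 0.67, adjusted p = 0.0146 in liver, and 1.03, adjusted p = 0.0359 in adipose tissue), and *Steap4*, a metalloreductase, did as well (1.28, adjusted p = 0.0429, and 0.56, adjusted p = 0.0478). *Commd1* rose in liver (0.55, adjusted p = 0.0159) and *Steap3*, another metalloreductase, in adipose tissue (0.96, adjusted p = 0.0239). The copper-exporting ATPase gene *Atp7b* fell in liver (-0.39, adjusted p = 0.0218). Of 9 zinc-responsive genes, 1 fell in liver and 3 in adipose tissue, where 9.79% and 9.35% of all genes fell. All were members already described (*Slc30a1* in liver, and *Slc30a1*, *Mt1* and *Mt2* in adipose tissue).

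*Mt1*, *Mt2* and *Slc39a14* tended to deviate together from their group means, but *Mt2* and *Slc39a14* hardly did so in adipose tissue. Single samples also differed. Mouse B in adipose tissue was highest in *Mt1* and below the mean in *Mt2*. Old liver 18 was highest in *Mt1* and below the mean in *Slc39a14*. After the mean of each tissue and age was subtracted, the log2 values of *Mt1* and *Mt2* had a Pearson r of 0.91 over the 27 samples (0.94 in liver, 0.77 in adipose tissue and 0.96 in muscle) and of 0.87 over the 24 samples left without mouse B. For *Mt1* and *Slc39a14*, r was 0.85 (0.58, 0.62 and 0.96) and 0.72 without mouse B. For *Mt2* and *Slc39a14* it was 0.78 (0.68 in liver, 0.16 in adipose tissue and 0.97 in muscle) and 0.70 without mouse B. These are descriptions, and the points share mice at 5 months and the scaling of each library. *Mt1* had an r of -0.17 with *Slc30a1* and of 0.23 with *Mtf1*. Among 11013 genes that reached a value of 1 in 4 samples of every tissue, *Mt2*, *Slc39a14*, *Pld1*, *Mnda* and *Bcl2l1* were nearest to *Mt1* (0.80 to 0.91). Nearest to *Mt2* were *Mt1*, *Mnda*, *Ptpn12*, *Pld1* and *Ifngr1* (0.78 to 0.91), and nearest to *Slc39a14* were *Sdc4*, *Ing3*, *Arid5b*, *Rnf111* and *Mt1* (0.85 to 0.87).

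**Figure D5:**
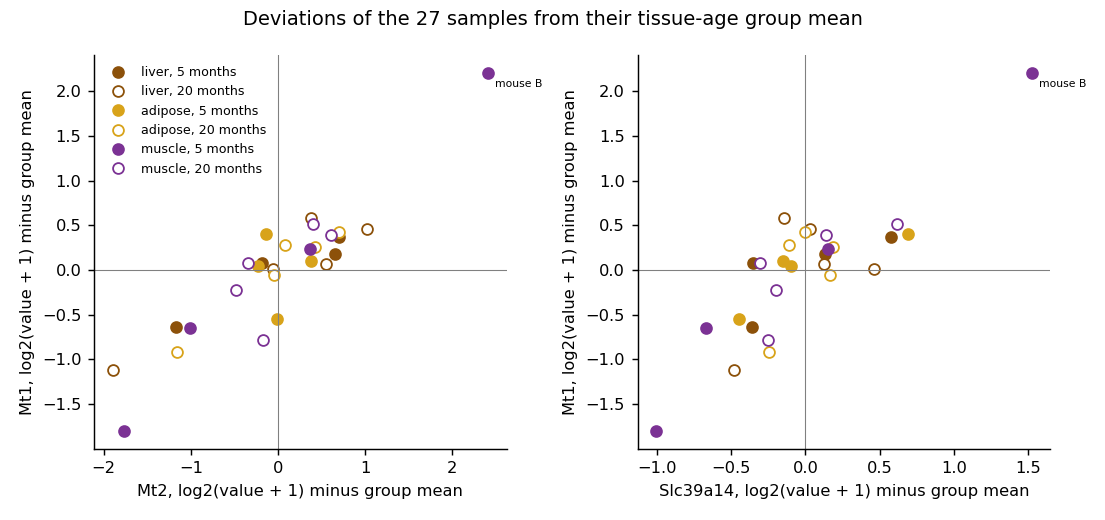
Deviation of each of the 27 samples from the mean of its tissue and age, in log2(value + 1), for *Mt1* against *Mt2* (left) and against *Slc39a14* (right). Colours are tissues, filled circles 5 months and open circles 20 months; the muscle of mouse B lies at the upper right, and r is 0.91 and 0.85.

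*Mtf1* and the exporters had other neighbours. Nearest to *Mtf1* were *Scaf4*, *Zbed4*, *Arid4a*, *N4bp1* and *Zfp276* (r of 0.77 to 0.81), and nearest to *Slc30a1* were *Fbrsl1*, *Dph2*, *Pogz*, *Zer1* and *Mettl13* (0.74 to 0.80). Outside liver, *Slc30a10* had at most 6 reads in a sample. *Slc39a4* had 8 to 258 reads in adipose tissue and at most 3 in muscle. *Slc30a10* was nearest to *Abhd6*, *Lonp1*, *Prmt3*, *Slc16a1* and *Sdha*, with an r of 0.88 to 0.95 in liver. *Slc39a4* was nearest to *Stard10*, *Nt5e*, *Ccdc157*, *Trim7* and *Slc38a4*, which followed it in adipose tissue (0.88 to 0.98) and, apart from *Ccdc157* (0.70), at most at 0.35 in liver.

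For some of the genes the same young mouse was highest or lowest in every tissue. Mouse B had the highest and mouse D the lowest *Mt1* value in all 3 tissues, and the same held for *Slc39a14*. *Mt2* followed this order in liver and muscle, while in adipose tissue mouse C was highest and mouse A lowest. *Mtf1* was highest in mouse A in all 3 tissues. *Slc30a1* was highest in mouse A and lowest in mouse D in liver and adipose tissue, but highest in mouse D and lowest in mouse B in muscle, and *Slc30a10* in liver had mouse D highest. Of 12 glucocorticoid-responsive genes, mouse B was highest for 9 in liver, 9 in adipose tissue and 8 in muscle, and mouse D lowest for 6, 7 and 8. How often these mice were highest or lowest over all genes was not counted, so nothing is read from such counts. *Zbtb16*, a sensitive glucocorticoid target, stood at 8.97, 117, 7.20 and 7.20 in the young livers in the order A to D, and at 3.29 to 13.5 in the old ones. Of 9 heat shock genes, mouse B was highest for 5 in liver (mouse A for 4), 6 in adipose tissue and 8 in muscle, again without a count over all genes. Reads of *Hspa1a* can be shared with its near-identical copy *Hspa1b*. In muscle *Hspa1a* stood at 4176 in mouse B, beside 120 to 1085 in the other young mice and 18.4 to 57.96 in the old.

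Genes of these programmes were also followed with age, from lists drawn up with earlier results of these data known. Of the 12 glucocorticoid-responsive genes, 5 fell in liver and 7 in adipose tissue and none rose (9.79% and 9.35% of all genes fell), with median log2 differences of -0.99 and -1.19 beside 0.00 and 0.01 over all genes tested. *Fkbp5* fell in both (log2 -1.61, limma adjusted p = 0.0218, and -1.98, adjusted p = 0.0095), as did *Sgk1* (-1.02, adjusted p = 0.0333, and -1.26, adjusted p = 0.0243) and *Errfi1* (-1.22, adjusted p = 0.0337, and -1.71, adjusted p = 0.0314). *Cdkn1a* fell in liver (-1.50, adjusted p = 0.0136) and *Per1* in adipose tissue (-1.67, adjusted p = 0.0288). Of 9 heat shock genes, none passed the test in liver (limma, 0 called; 1 had an unadjusted p under 0.05) and *Bag3* and *Hsf1* fell in adipose tissue (-0.79 and -0.41, adjusted p = 0.0433 and 0.0487). Of 11 interleukin-6 and acute phase genes, *Saa2* (2.42, limma adjusted p = 0.0190) and *Steap4* rose in liver. *Hamp*, the iron hormone hepcidin, fell there (-1.73, limma adjusted p = 0.0077). Over all genes tested in liver, 10% rose and 9.79% fell. In adipose tissue 8 of these genes were tested, of which *Stat3* fell (-0.96, limma adjusted p = 0.0138) and *Steap4* rose, where 9.35% of all genes fell and 9.75% rose. In muscle, given as values only, the median log2 difference was -1.17 for the 12 glucocorticoid-responsive genes and -1.91 for the 9 heat shock genes. It was -0.76 for the 7 interleukin-6 and acute phase genes that passed the filter there, beside 0.02 over all genes. How much of the metallothionein differences goes with these programmes was not tested.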

How the data were processed

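Total RNA from liver, omental adipose tissue and skeletal muscle of *Mlx*KO mice was sequenced by the authors, and CLC Genomics Workbench gave the reads per gene. The labels name the genome builds GRCm38.p6 and mm10. The build and annotation behind the CLC reads could not be told from the sources used here. The authors deposited a scaled signal, CPM further divided by a sample factor. Plain CPM had been assumed from the name of the table, and the log-scale tests were kept. In each sample 100% of the values above 0 corresponded to a whole number of reads (within 0.02 of a read), which gave back the counts. In each sample 3 reads were taken as the limit that a count of 0 allows, for counting error only. Tissue and age in the labels define the groups. None of 48 within-group pairs held identical values, and their counts differed by a chi-square of at least 9.21 per degree of freedom.

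The members, lists and tests were chosen with earlier results of these data known. Differences were tested by limma 3.58.1 (R 4.3.3) with a variance trend on log2(value + 1), a scale that understates changes of low genes, for genes that reached a value of 1 in 4 or more samples of the fit, with Benjamini-Hochberg adjustment over all genes tested and a threshold of 0.05. Exact two-sided permutation tests (scipy) ran over all splits of a tissue's 9 samples, in 13 comparisons. Exon lengths and overlaps came from GENCODE vM21 and positions from RefSeq (GRCm38.p6), by gene ID, and 5 of the 7 genes were matched to a promoter. The exon length of *Mt1* merges its introns, which some annotated transcripts retain. The text names the 7 genes, the Slc30 and Slc39 genes past the threshold in liver or adipose tissue, up to 4 genes of each other list with the smallest adjusted p, and the 5 genes nearest to each member; *Slc30a7* between the tissues, *Mt3*, *Mt4*, *Zbtb16*, *Hspa1a* and the marker genes were named after their values were seen. Mouse numbers at 5 months mark the same animal, and deviations of same-numbered liver and adipose samples correlated at -0.02 to 0.22. On simulated reads, limma recovered 75 of 100 genes changed by 1 on the log2 scale in liver and 82 of 97 in adipose tissue, with 10 and 5 false calls among 12711 and 14049 genes. For the difference between the age changes it recovered 29 of 100 changed by 1 and 86 of 99 changed by 2. The simulated reads were drawn independently, with a fixed dispersion of 0.05 for every gene and no effect of mouse. These recovery rates therefore do not apply to genes with a wider spread between samples, such as *Mt2* in liver. Alternatives covered pseudocounts, filters, scalings, weights for samples, a replicate block, count tests of the recovered reads (edgeR 4.0.16, DESeq2 1.42.0), and each sample left out. Values without mouse B in the comparison of samples were added after the data were seen.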

Additional observations from a re-analysis of the deposited data

How the results depend on the processing

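Genes called in the age comparisons of liver, adipose tissue and muscle numbered 2508, 2674 and 2451, and edgeR called 2578, 2692 and 2453. With 1 sample left out they ranged from 959 to 3557, 397 to 3748 and 1158 to 3796, and the 7 genes called ranged from 0 to 2 in liver and from 1 to 4 in adipose tissue. Of the 2 called in liver, 0 remained with no filter, without the 20 most abundant genes or without a variance trend, and 1 with median-of-ratios factors, sample weights or 1 fit of all 27 samples. Of the 4 called in adipose tissue, 2 remained with no filter and with all 27 samples in 1 fit. Genes called rose to 4454 (liver) and 8456 (adipose tissue) with sample weights, and in adipose tissue stood at 1525 with no filter, 5270 with all 27 samples and 4347 by DESeq2; muscle gave 1507 with no filter. For the difference of the age changes, sample weights called 5801 genes against 1721, and 4 of the 7 against 0, and all 27 samples in 1 fit called 1. The cause of these shifts was not tested.

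With mouse as a replicate block, liver and adipose tissue at 5 months gave 5 of 7 calls in place of 4 (*Mtf1* added) and the interaction 0; it changed no other call. Rescaling without the 20 most abundant genes moved the median of all genes in liver with age to 0.17. Directions turned for *Slc39a14* with age in liver (0.0186 under that rescaling, 0.10 with sample weights, and from -0.28 to 0.0304 with 1 sample left out, the highest without young mouse B), *Slc39a4* in adipose tissue (-0.67 to 0.0119 with 1 sample left out, the highest without old mouse 37), *Mt1* between liver and adipose tissue at 5 months (-0.96 rescaled, adjusted p = 0.0082, -0.17 weighted, -0.10 by edgeR, -0.0685 by DESeq2), *Mtf1* and *Slc30a1* there (-0.48 and -0.0729 rescaled), *Mtf1* (-0.35 rescaled, past the threshold in both directions) and *Mt2* (0.0735 weighted) at 20 months, and *Mtf1* in the difference of age changes (0.13 rescaled, 0.22 weighted). Calls were gained for *Mt2* between the tissues at 5 months (-1.55 rescaled, adjusted p = 0.0038) and for *Mtf1* with age in adipose tissue (-0.42 weighted, 0.0055). *Mt1* at 20 months was not called between the tissues with no filter (adjusted p = 0.0555), with all 27 samples (0.0937) or rescaled (0.745). The adipose fall of *Mt1* kept its call in each of 11 alternatives and 9 samples left out.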
